A study of Mus musculus with 8 samples.

Results

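The collagen chain genes of the mouse were followed across 2 classes of interstitial cells of Cajal and the gut muscle coat that surrounds them. A gene counted as a collagen chain gene when its only symbol in the platform annotation had the form Col, a number, a and a number. The rule gave 42 genes among 18193 measured, and used no expression value. They comprised 11 fibrillar collagens, 6 basement membrane collagens (the type IV chains only) and 25 other collagens. Further collagens of basement membranes, such as Col18a1, were counted among the other collagens. RNA was profiled on 8 single-colour arrays of BALB/c mouse small intestine at 6 to 9 days of age. ICC-DMP and ICC-MY cells gave 3 arrays each and whole tunica muscularis, the smooth muscle coat of the gut wall, gave 2. The sample names use abbreviations only, and in gut biology these commonly stand for interstitial cells of Cajal of the deep muscular plexus and of the myenteric plexus. No genotype or treatment separated the groups, and the sources used here do not give the cell isolation method, the sex of the mice or how many were used. About 50 ng of total RNA per sample passed through 2 amplification rounds. The titles number the samples as biological replicates without saying that they came from separate animals, so each p-value measures only the spread between these samples, which may be technical.

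Collagens are proteins of the extracellular matrix in which chains wind around each other as a triple helix. Fibrillar collagens pack into the cables that give tissue its tensile strength, type IV collagens form the sheet-like network of basement membranes, and the remaining families coat fibrils, form beaded filaments or short-chain lattices, or span the cell membrane. In gut muscle, smooth muscle cells and interstitial cells are wrapped by or lie next to basement membranes, and fibroblasts supply much of the interstitial fibre.

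Kit, the receptor that marks interstitial cells of Cajal, read 11.07, 11.34 and 10.84 on the ICC-DMP arrays, 10.81, 12.42 and 11.99 on the ICC-MY arrays, and 7.20 and 8.43 on the tissue arrays. Both cell classes lay above the tissue, by 3.27 (adjusted p = 0.00366) and 3.92 (adjusted p = 0.00112) on the log2 scale. The median of an array was between 4.18 and 4.31. Values spread less over the probe sets of replicate 1 of ICC-MY (SD 1.98) and replicate 1 of tunica muscularis (SD 2.06) than over those of any other array (2.22 to 2.31). These are called the narrow-range arrays here, and collagen calls that change without them are given both ways. All differences below are fitted log2 differences with their standard error (SE), and a gene was called at a Benjamini-Hochberg adjusted p under 0.05 in limma over all 18193 genes. Samples with the same replicate number tended to deviate together (correlations from 0.16 to 0.61), but some differently numbered pairs did too (0.14 and 0.17). The labels do not say what the numbers share. A fit with that number as a block (the blocked fit) is therefore only an alternative, quoted where it changes a call.

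Against the muscle coat, ICC-DMP cells had more mRNA of 7 collagen chains and less of 5. The higher ones were the type IV chains Col4a3, Col4a4 and Col4a5, the fibrillar chain Col27a1, the beaded filament chain Col6a4, the fibril-coating chain Col9a1 and the transmembrane chain Col23a1. The lower ones were Col5a3, Col11a1, Col14a1, Col18a1 and Col8a1. The 12 called members were 28.6% of the 42, and over all genes 11.0% were called in this comparison (3.72% higher and 7.32% lower). The arrays of the groups did not overlap for 14 members that read higher and 13 that read lower, and for 38.5% of all genes. The median difference was 0.08 over the collagen genes and -0.04 over all genes.

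In ICC-MY cells, 3 collagen chains were higher than in tissue (Col13a1, Col23a1 and Col26a1) and 9 were lower (Col1a1, Col5a1, Col5a3, Col11a1, Col4a4, Col14a1, Col18a1, Col8a1 and Col20a1). These 12 were again 28.6% of the members, and 13.8% of all genes were called (4.05% higher and 9.78% lower). Arrays did not overlap for 5 members that read higher and 12 that read lower, and for 34.2% of all genes. The median difference was -0.07 over the collagen genes and -0.02 over all genes. Both comparisons use the same 2 tissue arrays, so a gene called in both is not 2 independent observations. Col23a1 was called higher in both, and Col11a1, Col14a1, Col18a1, Col5a3 and Col8a1 were called lower in both.

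Between the cell classes, ICC-DMP cells had more mRNA of 8 collagen chains than ICC-MY cells (Col4a3, Col4a4, Col4a5, Col5a1, Col24a1, Col27a1, Col6a4 and Col9a1) and less of 2 (Col13a1 and Col26a1). The 10 called members made up 23.8% of the 42, against 8.67% of all genes (5.36% higher and 3.30% lower). Arrays of the classes did not overlap for 13 members that read higher in ICC-DMP cells and 5 that read lower, and for 25.6% of all genes. The median difference was 0.11 over the collagen genes and -0.02 over all genes. The blocked fit called 17 members, among them all 10, and 2617 of all genes (1577 without the block). Quantile normalization called 16 members, of which 10 were higher and 6 lower, and 2557 of all genes. In all 3 comparisons, 18 collagen genes were called at least once and 24 were not called in any. On every array, 14 of the 42 members (4 fibrillar, 1 basement membrane and 9 other) lay under the median of all gene values (5.31), and of these 14 only Col11a1 and Col24a1 were called. RNA came from many cells at once, so fewer cells of a type and less RNA per cell cannot be told apart in any of these differences.

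**Figure D1:**
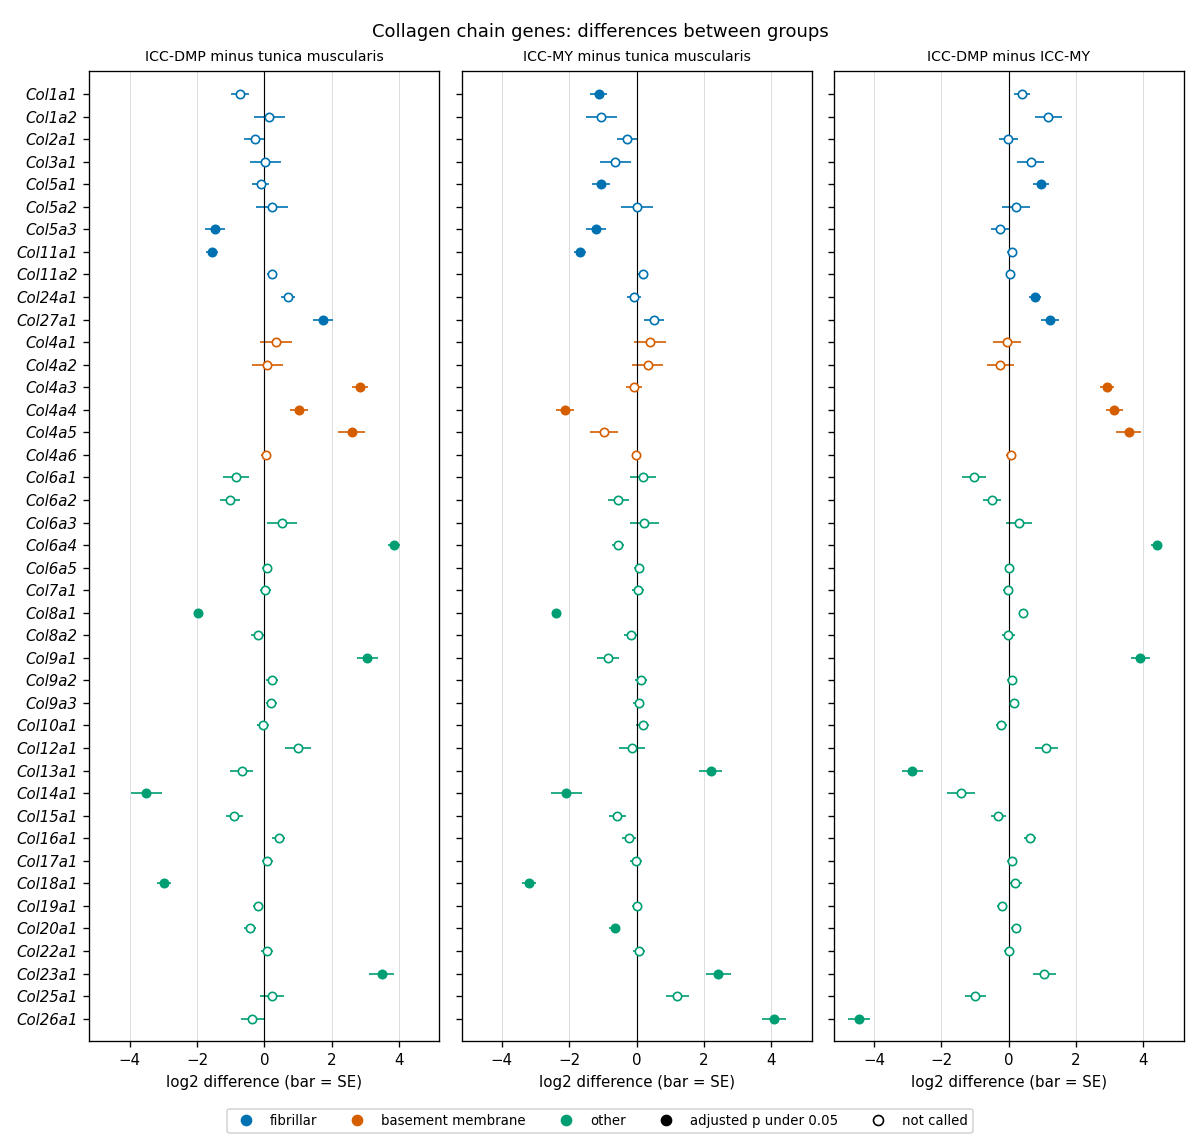
Fitted log2 difference (x axis) of each of the 42 collagen chain genes (rows) in the 3 comparisons (panels), with SE bars. Filled points passed an adjusted p of 0.05, and colour gives the class (blue fibrillar, orange basement membrane, green other). The ICC-DMP minus ICC-MY panel runs from -4.44 (Col26a1) to 4.39 (Col6a4).

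Type IV collagen showed a split among its chains. The 3 chains Col4a3, Col4a4 and Col4a5 were higher in ICC-DMP cells than in ICC-MY cells and than in tissue. For Col4a4 the call against tissue sat at the threshold (limma, adjusted p = 0.0499) and was lost in 10 of 17 alternatives. Called chains were 50.0%, 16.7% and 50.0% of the 6 for ICC-DMP against tissue, ICC-MY against tissue and between the classes. Over all genes 11.0%, 13.8% and 8.67% were called. On the probe sets used, Col4a1, Col4a2 and Col4a6 were not called in any comparison. Other probe sets of Col4a1 and Col4a6 were called, as given below. As background, the Col4a1 and Col4a2 chains form the type IV network of most basement membranes. The Col4a3, Col4a4 and Col4a5 chains form another network, best known from the kidney glomerulus, whose loss causes Alport syndrome. Col4a5 chains also join Col4a6 chains in some smooth muscle basement membranes. The type IV genes lie as neighbouring pairs: the promoter windows of Col4a1 and Col4a2 overlapped, Col4a3 and Col4a4 share chromosome 1, and the windows of Col4a5 and Col4a6 on the X chromosome were 842 bases apart. The promoters of the called pair members are shown with that of Col4a6, the neighbour not called on the probe set used. Also shown is that of Col6a4, the collagen gene with the largest difference between a cell class and tissue apart from Col26a1. The windows are from RefSeq (GRCm38.p6), from 250 bases before to 50 after the annotated start, on the strand of the gene. Capitals mark the CCAAT box (letters CCAAT) and the GC box (letters GGGCGG, which read CCGCCC on the opposite strand). Both were searched on either strand, as was the TATA box (letters TATAAA), and the matches did not overlap.
Col4a4 (chr1:82586800-82587099, minus strand): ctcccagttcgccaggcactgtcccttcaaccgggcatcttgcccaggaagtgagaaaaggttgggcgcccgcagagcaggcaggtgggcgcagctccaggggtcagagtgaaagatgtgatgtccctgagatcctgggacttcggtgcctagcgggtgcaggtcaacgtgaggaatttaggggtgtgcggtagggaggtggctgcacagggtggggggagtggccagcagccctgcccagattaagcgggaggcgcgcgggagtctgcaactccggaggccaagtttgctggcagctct
Col4a5 (chrX:141475169-141475468, plus strand): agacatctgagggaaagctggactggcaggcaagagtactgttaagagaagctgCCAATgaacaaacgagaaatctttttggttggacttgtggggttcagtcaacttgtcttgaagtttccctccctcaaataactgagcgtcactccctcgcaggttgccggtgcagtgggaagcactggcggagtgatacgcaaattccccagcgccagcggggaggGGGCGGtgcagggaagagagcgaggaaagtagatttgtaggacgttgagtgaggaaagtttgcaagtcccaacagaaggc
Col4a6 (chrX:141474027-141474326, minus strand): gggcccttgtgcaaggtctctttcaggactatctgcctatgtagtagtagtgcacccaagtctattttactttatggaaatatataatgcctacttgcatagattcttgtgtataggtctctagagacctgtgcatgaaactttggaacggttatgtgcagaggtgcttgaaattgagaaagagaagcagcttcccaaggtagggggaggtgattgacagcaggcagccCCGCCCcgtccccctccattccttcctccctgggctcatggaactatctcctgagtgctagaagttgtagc
Col6a4 (chr9:106096642-106096941, minus strand): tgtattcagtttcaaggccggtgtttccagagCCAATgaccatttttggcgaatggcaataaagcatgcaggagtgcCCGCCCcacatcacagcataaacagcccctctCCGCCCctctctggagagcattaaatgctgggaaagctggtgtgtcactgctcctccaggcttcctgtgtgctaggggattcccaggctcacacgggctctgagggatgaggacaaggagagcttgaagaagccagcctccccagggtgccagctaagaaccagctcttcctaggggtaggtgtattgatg

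The Col4a4 window also holds the annotated start of Col4a3, which has no window of its own in the table, and held 0 matches. Col4a5 had 1 CCAAT and 1 GC box, Col4a6 had 1 GC box, and Col6a4 had 1 CCAAT and 2 GC boxes. Windows were found for 33 of the 42 collagen genes, 36 windows in all: 5 held TATAAA, 13 held a CCAAT box and 22 held a GC box. Over 32851 windows in the table, 13.6% held TATAAA, 37.4% held a CCAAT box and 35.7% held a GC box. These are descriptions of the letters in the windows, and promoter activity was not measured.

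Col4a5 (Entrez gene 12830) read 11.02, 11.37 and 10.87 on the ICC-DMP arrays, 7.32, 7.55 and 7.71 on the ICC-MY arrays, and 7.69 and 9.30 in tissue. Group means were 11.09 ± 0.26 (SD, n = 3), 7.53 ± 0.20 (SD, n = 3) and 8.49 ± 1.13 (SD, n = 2). All ICC-DMP arrays were above all others, while ICC-MY replicate 3 just exceeded the lower tissue array. ICC-DMP cells exceeded ICC-MY cells by 3.56 ± 0.37 (11.8-fold, adjusted p = 0.000507) and tissue by 2.59 ± 0.41 (6.03-fold, adjusted p = 0.00447). ICC-MY cells differed from tissue by -0.97 ± 0.41 (adjusted p = 0.191). Tunica muscularis replicate 1 decides that last value: without it the difference was -1.77 (adjusted p = 0.00383), and without both narrow-range arrays -1.66 (adjusted p = 0.00259).

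Col4a3 read 9.21, 9.39 and 8.64 in ICC-DMP cells, 6.43, 6.01 and 6.05 in ICC-MY cells, and 6.21 and 6.28 in tissue. The ICC-DMP arrays stood apart, and the ICC-MY range enclosed both tissue values. ICC-DMP cells were higher than ICC-MY cells by 2.92 ± 0.22 (7.56-fold, adjusted p = 0.000104) and than tissue by 2.84 ± 0.24 (7.16-fold, adjusted p = 0.000156). The ICC-MY difference from tissue was -0.08 ± 0.24 (adjusted p = 0.914).

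Col4a4 took 3 separate levels. It read 9.73, 9.66 and 9.46 in ICC-DMP cells, 6.30, 6.36 and 6.75 in ICC-MY cells, and 8.13 and 9.05 in tissue, and no array of one group overlapped another group. ICC-DMP cells exceeded ICC-MY cells by 3.14 ± 0.25 (8.83-fold, adjusted p = 0.000127). ICC-MY cells lay below tissue by -2.12 ± 0.27 (4.34-fold lower, adjusted p = 0.00122), or -1.40 (adjusted p = 0.00043) when the probe sets of a gene were averaged. The ICC-DMP excess over tissue, 1.02 ± 0.27 (2.03-fold, adjusted p = 0.0499), sat at the threshold. It was lost in 10 of 17 alternatives. Among these were omission of any ICC-DMP array (adjusted p = 0.158, 0.145 and 0.0965) and of replicate 2 or replicate 3 of the ICC-MY arrays (adjusted p = 0.0744 and 0.0578). Omission of tunica muscularis replicate 1 left 0.57 (adjusted p = 0.242), and omission of both narrow-range arrays 0.57 (adjusted p = 0.126).

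On the probe sets used, the chains of the common network gave a different picture. Col4a1 read 11.97, 12.06 and 12.30 in ICC-DMP cells, 11.27, 12.64 and 12.57 in ICC-MY cells, and 11.17 and 12.38 in tissue. Its groups overlapped, and its differences were 0.34 ± 0.47 and 0.39 ± 0.47 against tissue and -0.05 ± 0.42 between the cell classes (adjusted p = 0.807, 0.731 and 0.976). On a second Col4a1 probe set all cell arrays lay above both tissue arrays. Its differences from tissue were 0.74 in ICC-DMP cells (adjusted p = 0.08) and 0.96 in ICC-MY cells (adjusted p = 0.0264, both limma over all probe sets). Col4a2 read 9.89, 9.95 and 10.34, then 9.35, 10.78 and 10.79, then 9.52 and 10.42 in the same order of groups. For both genes the low values were those of the narrow-range arrays. The Col4a2 difference between the cell classes was -0.25 ± 0.41 (adjusted p = 0.848), and -0.73 (adjusted p = 0.0264) without those arrays. The Col4a6 probe set used stayed between 3.81 and 4.02 on all 8 arrays, under the median of all genes. Its differences were 0.05 ± 0.14, -0.01 and 0.06 ± 0.13 (adjusted p = 0.927, 0.984 and 0.897). A second Col4a6 probe set, also at low values, was higher in ICC-DMP than in ICC-MY cells by 0.86 (limma, adjusted p = 0.024). It was higher in ICC-DMP cells than in tissue by 0.82 (adjusted p = 0.0353, both over all probe sets).

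**Figure D2:**
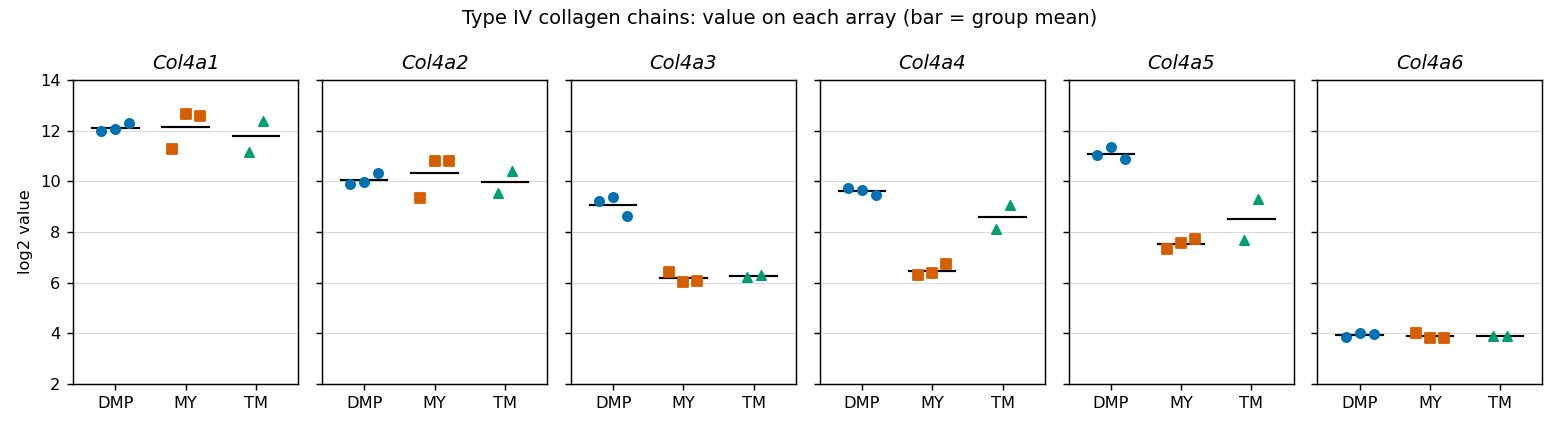
Log2 value (y axis, 2 to 14) of the 6 type IV collagen genes on each array of ICC-DMP cells (DMP), ICC-MY cells (MY) and tunica muscularis (TM), with a bar at each group mean. Col4a3, Col4a4 and Col4a5 stand highest on the ICC-DMP arrays, while Col4a1 and Col4a2 overlap between groups and Col4a6 stays near 4.

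Smooth muscle markers moved with the contrast between the cell classes. Of 8 measured (Acta2, Actg2, Myh11, Cnn1, Tagln, Myocd, Des and Smtn), 6 were called higher in ICC-DMP than in ICC-MY cells and 0 lower. Over all genes 5.36% were called higher and 3.30% lower. The mean of the list ranged over arrays from 9.99 to 10.29 in ICC-DMP cells, 7.24 to 8.06 in ICC-MY cells and 10.67 to 11.61 in tissue. Against tissue, 0 of 8 markers were called higher and 4 lower in ICC-DMP cells (3.72% and 7.32% of all genes). Col4a3, Col4a4 and Col4a5 were called higher there, Col4a4 only at the threshold (limma, adjusted p = 0.0499). In ICC-MY cells 7 of 8 markers were called lower than in tissue (9.78% of all genes), with a list median of -3.73. Col4a4 was called lower there too. The part of smooth muscle RNA in the type IV differences was not tested.

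Among fibrillar collagens, the probe sets used for the type I and III chains were not called between ICC-DMP cells and tissue. ICC-MY cells had lower values of several chains. ICC-DMP cells exceeded tissue in 1 of 11 (Col27a1) and fell short in 2 (Col5a3 and Col11a1), with a median difference of 0.03. ICC-MY cells were lower than tissue in 4 of 11 (Col1a1, Col5a1, Col5a3 and Col11a1), higher in 0, with a median of -0.63. ICC-DMP cells exceeded ICC-MY cells in 3 of 11 (Col5a1, Col24a1 and Col27a1), with a median of 0.40, and 0 were lower. Called chains were 27.3%, 36.4% and 27.3% of the class in the 3 comparisons, against 11.0%, 13.8% and 8.67% of all genes.

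Col1a1 and Col1a2 encode the chains of type I collagen, the main fibre of connective tissue. Col1a1 read 9.70, 9.64 and 9.62 in ICC-DMP cells, 9.42, 9.49 and 8.84 in ICC-MY cells, and 10.05 and 10.72 in tissue. Both cell classes lay below both tissue arrays. ICC-MY cells were lower by -1.13 ± 0.26 (adjusted p = 0.0204), a call lost without tunica muscularis replicate 2 (-0.80, adjusted p = 0.126), with an intensity trend in the prior (adjusted p = 0.0546) and with only those 2 groups in the fit (adjusted p = 0.0944). The ICC-DMP difference was -0.73 ± 0.26 (adjusted p = 0.126), or -1.06 (adjusted p = 0.0278) without both narrow-range arrays. With the probe sets averaged it was called too (-0.70, adjusted p = 0.00782). The other Col1a1 probe set gave -0.67 (limma, adjusted p = 0.0434 over all probe sets).

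Col1a2 read 12.32, 12.68 and 12.58 in ICC-DMP cells, 10.53, 12.00 and 11.51 in ICC-MY cells, and 11.78 and 13.00 in tissue. Every ICC-DMP array was above every ICC-MY array, and the tissue arrays overlapped both classes. The ICC-DMP difference from tissue was 0.14 (adjusted p = 0.939). The unused Col1a2 probe sets gave -0.12 (adjusted p = 0.956) and 2.22 (adjusted p = 0.00672, both limma over all probe sets). Neither the difference of 1.18 ± 0.41 between the classes (adjusted p = 0.152) nor that of -1.05 ± 0.46 between ICC-MY cells and tissue (adjusted p = 0.211) was called. In the blocked fit they were 1.18 (adjusted p = 0.00573) and -1.10 (adjusted p = 0.0145). Quantile normalization (0.90, adjusted p = 0.000784, and -0.94, adjusted p = 0.00082) and leaving out both narrow-range arrays (0.77, adjusted p = 0.0348, and -1.25, adjusted p = 0.0138) called them too.

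Col3a1, the type III chain of reticular fibres, read 12.94, 13.26 and 12.87 in ICC-DMP cells, 11.54, 12.98 and 12.57 in ICC-MY cells, and 12.44 and 13.54 in tissue. The groups overlapped. Its differences were 0.03, -0.63 and 0.66 for ICC-DMP against tissue, ICC-MY against tissue and between the classes (adjusted p = 0.985, 0.485 and 0.48).

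Type V collagen sits inside type I fibrils and limits their width, and its chains did not move as one. Col5a1 read 9.94, 9.79 and 9.85 in ICC-DMP cells, 8.59, 9.04 and 9.11 in ICC-MY cells, and 9.54 and 10.39 in tissue. The ICC-MY arrays were the lowest and did not overlap either group. ICC-MY cells were below tissue by -1.05 ± 0.26 (adjusted p = 0.0325) and below ICC-DMP cells, which were higher by 0.95 ± 0.24 (adjusted p = 0.045). Each call was lost in 9 of 17 alternatives. For the tissue comparison these were leaving out any of the 6 cell arrays (adjusted p from 0.0511 to 0.0644) or tunica muscularis replicate 2 (-0.63, adjusted p = 0.172), the trend, and the fit of those 2 groups. For the comparison between the classes they were leaving out any of the 6 cell arrays (adjusted p from 0.075 to 0.166), median centring, probe-set averaging and the trend. Col5a2 had differences of 0.23, 0.01 and 0.22 and was not called.

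Col5a3 read 7.85 and 6.93 in tissue, against 6.11, 5.78 and 5.88 in ICC-DMP cells and 6.28, 5.81 and 6.45 in ICC-MY cells. Both cell classes lay below both tissue arrays and overlapped each other. ICC-DMP cells were lower by -1.47 ± 0.30 (adjusted p = 0.015) and ICC-MY cells by -1.21 ± 0.30 (adjusted p = 0.029), or by -0.75 and -0.60 with the probe sets averaged. Without tunica muscularis replicate 1 the values were -1.01 (adjusted p = 0.0724) and -0.75 (adjusted p = 0.146). Omission of replicate 2 or replicate 3 of the ICC-DMP arrays also ended the ICC-DMP call (adjusted p = 0.0618 and 0.0536), and the ICC-MY call was lost without any ICC-DMP array (adjusted p from 0.0526 to 0.0546) or ICC-MY replicate 2 (adjusted p = 0.0804) and without both narrow-range arrays (-0.80, adjusted p = 0.104).

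Col11a1, a type XI chain known from cartilage fibrils, read 4.92 and 4.42 in tissue, against 3.05, 3.19 and 3.05 in ICC-DMP cells and 3.10, 2.90 and 3.0 in ICC-MY cells. All values were in the lower part of the array range. The cell classes were lower than tissue by -1.57 ± 0.18 (adjusted p = 0.000787) and -1.67 ± 0.18 (adjusted p = 0.000458), and differed from each other by 0.10 (adjusted p = 0.843).

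Col27a1 and Col24a1 encode fibrillar collagens described mainly in the developing skeleton. Col27a1 read 8.89, 8.81 and 9.33 in ICC-DMP cells, 7.53, 8.19 and 7.65 in ICC-MY cells, and 6.89 and 7.65 in tissue, with the ICC-DMP arrays above all others. ICC-DMP cells exceeded tissue by 1.74 ± 0.29 (3.34-fold, adjusted p = 0.00626) and ICC-MY cells by 1.22 ± 0.26 (adjusted p = 0.0233). The latter call was lost without any ICC-DMP array (adjusted p = 0.076, 0.0598 and 0.0927) and without ICC-MY replicate 1 or 3 (adjusted p = 0.052 and 0.0845). Col24a1 was weak on every array: 3.32, 3.32 and 3.0 in ICC-DMP cells, 2.36, 2.54 and 2.42 in ICC-MY cells, and 2.19 and 2.82 in tissue. ICC-DMP cells exceeded ICC-MY cells by 0.78 ± 0.19 (adjusted p = 0.0417), a call lost without any of the 6 cell arrays (adjusted p from 0.0611 to 0.166) and with median centring (adjusted p = 0.0556). Its ICC-DMP difference from tissue was 0.71 (adjusted p = 0.0769), 0.76 in the blocked fit (adjusted p = 0.0314) and 1.02 without tunica muscularis replicate 2 (adjusted p = 0.0219). The cartilage chains Col2a1 and Col11a2 were not called, with values from 4.06 to 5.01 and from 3.67 to 4.10.

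**Figure D3:**
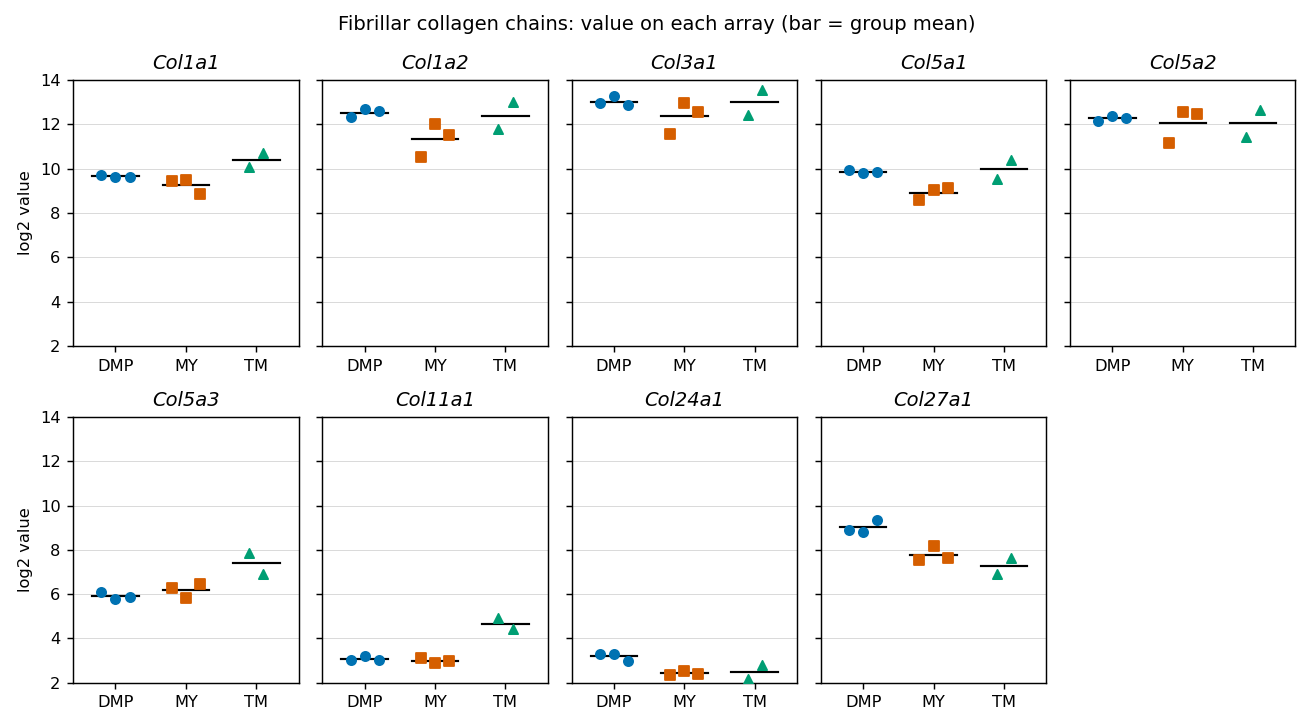
Log2 value (y axis, 2 to 14) of 9 fibrillar collagen genes on each array of ICC-DMP cells (DMP), ICC-MY cells (MY) and tunica muscularis (TM), with a bar at each group mean. Col27a1 is highest on the ICC-DMP arrays, Col5a3 and Col11a1 are highest in tissue, and Col3a1 overlaps between all 3 groups.

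The 25 other collagens held the largest differences in both directions. Against tissue, 3 were higher and 3 lower in ICC-DMP cells, and 3 were higher and 4 lower in ICC-MY cells. Between the classes, 2 were higher and 2 lower in ICC-DMP cells. Medians over the class were 0.03, 0.01 and 0.01. Called genes were 24.0%, 28.0% and 16.0% of the class, against 11.0%, 13.8% and 8.67% of all genes.

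Type VI collagen forms beaded filaments around cells, built from the chains of Col6a1 and Col6a2 with another chain, for which Col6a3, Col6a4 and Col6a5 encode alternatives. Col6a4 read 10.12, 10.05 and 9.85 in ICC-DMP cells, 5.43, 5.85 and 5.56 in ICC-MY cells, and 6.07 and 6.25 in tissue. The ICC-DMP arrays stood far above the rest, and the ICC-MY arrays were all below the tissue. ICC-DMP cells exceeded ICC-MY cells by 4.39 ± 0.16 (21.0-fold, adjusted p = 6.95e-06) and tissue by 3.84 ± 0.18 (14.4-fold, adjusted p = 7.03e-06). The ICC-MY difference from tissue was -0.55 ± 0.18 (adjusted p = 0.0821), or -0.52 (adjusted p = 0.0431) after quantile normalization. A further probe set for Col6a4 read between 2.73 and 3.41 on all arrays and differed by 0.11 between the classes and by -0.09 between ICC-DMP cells and tissue. Averaging the probe sets gave 2.25 and 1.88.

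The other type VI chains did not follow Col6a4. Col6a1 read 10.31, 10.17 and 10.46 in ICC-DMP cells, 10.50, 11.65 and 11.92 in ICC-MY cells, and 10.86 and 11.45 in tissue. All ICC-DMP values were below the other 5 arrays. Its ICC-DMP differences were -1.04 ± 0.35 from ICC-MY cells (adjusted p = 0.136) and -0.84 ± 0.39 from tissue (adjusted p = 0.274). The blocked fit called them at -1.04 (adjusted p = 0.0226) and -1.02 (adjusted p = 0.0466), and quantile normalization at -1.27 (adjusted p = 0.00258) and -1.05 (adjusted p = 0.012). They were also called without ICC-MY replicate 1, at -1.47 (adjusted p = 0.0037) and -0.84 (adjusted p = 0.0365), and without both narrow-range arrays, at -1.47 (adjusted p = 0.000666) and -1.13 (adjusted p = 0.00735). Col6a2 read 10.29, 10.38 and 10.56, then 10.35, 11.14 and 11.22, then 11.12 and 11.77 in that order of groups. ICC-DMP cells lay below both tissue arrays and differed from them by -1.03 ± 0.30 (adjusted p = 0.0648), which 8 of 17 alternatives called, among them the blocked fit (-1.15, adjusted p = 0.00515) leaving out ICC-MY replicate 1 (adjusted p = 0.0151) and leaving out both narrow-range arrays (-1.36, adjusted p = 0.00189). Its difference between the classes was -0.50 (adjusted p = 0.399), or -0.77 (adjusted p = 0.00872) without both narrow-range arrays. Col6a3 differed by 0.52, 0.23 and 0.30 and was not called, and Col6a5 read from 2.38 to 2.63 everywhere.

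Col9a1 encodes a chain of type IX collagen, which decorates cartilage fibrils. It read 10.33, 10.72 and 10.92 in ICC-DMP cells, 6.52, 6.67 and 7.06 in ICC-MY cells, and 7.08 and 8.11 in tissue, without overlap between any groups. ICC-DMP cells exceeded ICC-MY cells by 3.91 ± 0.29 (15.0-fold, adjusted p = 0.000103) and tissue by 3.06 ± 0.32 (8.34-fold, adjusted p = 0.000516). With the probe sets averaged these were 2.48 and 1.97, since the other probe set gave 1.06 (adjusted p = 0.214) and 0.87 (adjusted p = 0.334). ICC-MY cells differed from tissue by -0.85 ± 0.32 (adjusted p = 0.143), by -0.99 in the blocked fit (adjusted p = 0.0118), by -1.36 without tunica muscularis replicate 1 (adjusted p = 0.0249) and by -1.24 without both narrow-range arrays (adjusted p = 0.0213). Its partner chains Col9a2 (2.91 to 3.44) and Col9a3 (3.69 to 4.10) stayed low on every array and were not called.

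The transmembrane collagens are anchored in the plasma membrane and shed their outer part. Col23a1 was the one collagen called higher in both cell classes than in tissue. It read 9.82, 9.69 and 9.92 in ICC-DMP cells, 8.03, 8.88 and 9.33 in ICC-MY cells, and 5.94 and 6.70 in tissue. The 3 groups did not overlap. The differences from tissue were 3.49 ± 0.37 (11.2-fold, adjusted p = 0.000526) and 2.43 ± 0.37 (5.37-fold, adjusted p = 0.00293), and both of its further probe sets were also called against tissue. Between the classes it differed by 1.06 ± 0.33 (adjusted p = 0.104), which was called in the blocked fit (adjusted p = 0.0157) without ICC-MY replicate 3 (1.35, adjusted p = 0.0489) and without both narrow-range arrays (0.70, adjusted p = 0.0321).

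Col13a1, a transmembrane collagen of cell adhesions and the neuromuscular junction, was highest in ICC-MY cells. It read 7.65, 8.76 and 8.23 there, 4.95, 5.29 and 5.77 in ICC-DMP cells, and 5.83 and 6.20 in tissue. No group overlapped another. ICC-MY cells exceeded tissue by 2.20 ± 0.35 (4.59-fold, adjusted p = 0.0036). ICC-DMP cells were below ICC-MY cells by -2.87 ± 0.31 (7.33-fold lower, adjusted p = 0.000665), and their difference from tissue was -0.68 (adjusted p = 0.331).

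Col25a1, best known from neurons, also read highest in ICC-MY cells, at 5.82, 6.49 and 7.24, against 5.55, 5.58 and 5.45 in ICC-DMP cells and 5.22 and 5.39 in tissue. The ICC-MY arrays did not overlap the other groups, but their own spread was wide. Neither its difference from tissue of 1.21 ± 0.35 (adjusted p = 0.0543) nor that of -0.99 ± 0.31 between the classes (adjusted p = 0.106) was called. The blocked fit (1.05, adjusted p = 0.0374, and -0.99, adjusted p = 0.0316) and leaving out ICC-MY replicate 1 (1.56, adjusted p = 0.00394, and -1.34, adjusted p = 0.00768) called both. So did leaving out both narrow-range arrays (1.48, adjusted p = 0.0119, and -1.34, adjusted p = 0.00578). Col17a1, the hemidesmosome collagen of epithelia, read from 2.72 to 3.14 on all arrays.

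Col26a1 showed the widest difference between the cell classes of any collagen. This short collagen was described in testis and ovary. It read 7.35, 8.10 and 8.76 in ICC-MY cells, 3.75, 3.42 and 3.73 in ICC-DMP cells, and 4.04 and 3.94 in tissue. The ICC-MY arrays lay far above all others, and the ICC-DMP arrays lay below the tissue. The readings in ICC-DMP cells and tissue were under the array medians, where a value may lie near background, so the folds below depend on that level. ICC-MY cells exceeded tissue by 4.08 ± 0.35 (16.9-fold, adjusted p = 0.000148). ICC-DMP cells were below ICC-MY cells by -4.44 ± 0.32 (21.7-fold lower, adjusted p = 9.16e-05) and differed from tissue by -0.36 (adjusted p = 0.688). A further probe set differed by 0.16 and -0.21 in the 2 called comparisons, and averages over both probe sets gave 2.12 and -2.32.

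Several fibril-coating and basement membrane zone collagens had their highest values in whole tissue. Col14a1, a fibril-coating chain of soft connective tissue, read 9.93 and 11.12 in tissue, 7.53, 7.28 and 6.23 in ICC-DMP cells, and 8.36, 8.84 and 8.10 in ICC-MY cells. The groups did not overlap and ICC-DMP cells were lowest. Differences from tissue were -3.51 ± 0.46 in ICC-DMP cells (11.4-fold lower, adjusted p = 0.00169) and -2.09 ± 0.46 in ICC-MY cells (4.25-fold lower, adjusted p = 0.0189). The ICC-MY call was lost without ICC-MY replicate 3 (-1.92, adjusted p = 0.0613) and without tunica muscularis replicate 2 (-1.50, adjusted p = 0.123). Between the classes the difference was -1.42 ± 0.41 (adjusted p = 0.0826), and the blocked fit called it (adjusted p = 0.00698).

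Col18a1, the basement membrane collagen from which endostatin is cleaved, read 9.23 and 9.88 in tissue, 6.46, 6.56 and 6.67 in ICC-DMP cells, and 6.39, 6.49 and 6.23 in ICC-MY cells. Both classes lay well below the tissue and overlapped each other. The differences were -2.99 ± 0.21 (7.95-fold lower, adjusted p = 5.33e-05) and -3.19 ± 0.21 (9.10-fold lower, adjusted p = 3.44e-05), with 0.19 between the classes (adjusted p = 0.708). Col8a1, a short-chain collagen of vessel walls and the cornea, read 7.25 and 7.45 in tissue, 5.28, 5.41 and 5.48 in ICC-DMP cells, and 4.99, 4.95 and 4.98 in ICC-MY cells. It too was lower in both classes, by -1.96 ± 0.14 (3.90-fold lower, adjusted p = 6.14e-05) and -2.38 ± 0.14 (5.20-fold lower, adjusted p = 2.03e-05), or by -0.82 and -1.04 with the probe sets averaged. The groups of Col8a1 did not overlap, and the class difference was 0.42 (adjusted p = 0.0981).

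Col20a1, a little-studied fibril-coating collagen, read 5.75 and 5.83 in tissue, 5.37, 5.10 and 4.94 in ICC-MY cells, and 5.25, 5.35 and 5.49 in ICC-DMP cells. Both classes were below both tissue arrays. The ICC-MY difference of -0.65 ± 0.17 (adjusted p = 0.0383) was called, and 11 of 17 alternatives lost it, among them the blocked fit (-0.64, adjusted p = 0.052) and leaving out any array other than ICC-MY replicate 1 (adjusted p from 0.0591 to 0.149). The ICC-DMP difference was -0.43 (adjusted p = 0.182).

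Col12a1, Col15a1 and Col16a1, which lie at fibril surfaces or basement membrane edges, were not called. Col12a1 read 8.73, 8.19 and 7.32 in ICC-DMP cells, 6.63, 7.34 and 6.91 in ICC-MY cells, and 7.13 and 7.06 in tissue. Its ICC-DMP differences were 0.99 ± 0.38 from tissue (adjusted p = 0.169) and 1.12 ± 0.34 from ICC-MY cells (adjusted p = 0.0949). They were 1.19 (adjusted p = 0.0428) and 1.12 (adjusted p = 0.0289) in the blocked fit, and 1.36 (adjusted p = 0.0312) and 1.50 (adjusted p = 0.0167) without ICC-DMP replicate 3, the lowest of its group. Col15a1 differed from tissue by -0.89 in ICC-DMP cells (adjusted p = 0.0698), by -0.75 in the blocked fit (adjusted p = 0.0368), and with adjusted p = 0.0207 and 0.0288 without ICC-MY replicate 1 or 3. Its ICC-MY difference from tissue, -0.57 (adjusted p = 0.223), was -0.80 without ICC-MY replicate 1 (adjusted p = 0.0381). Col16a1 differed by 0.64 ± 0.18 between the classes (adjusted p = 0.068, or 0.0289 in the blocked fit). Of the other collagens not yet described, Col7a1, Col8a2, Col10a1, Col19a1 and Col22a1 were under the median of all genes on every array and were not called.

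**Figure D4:**
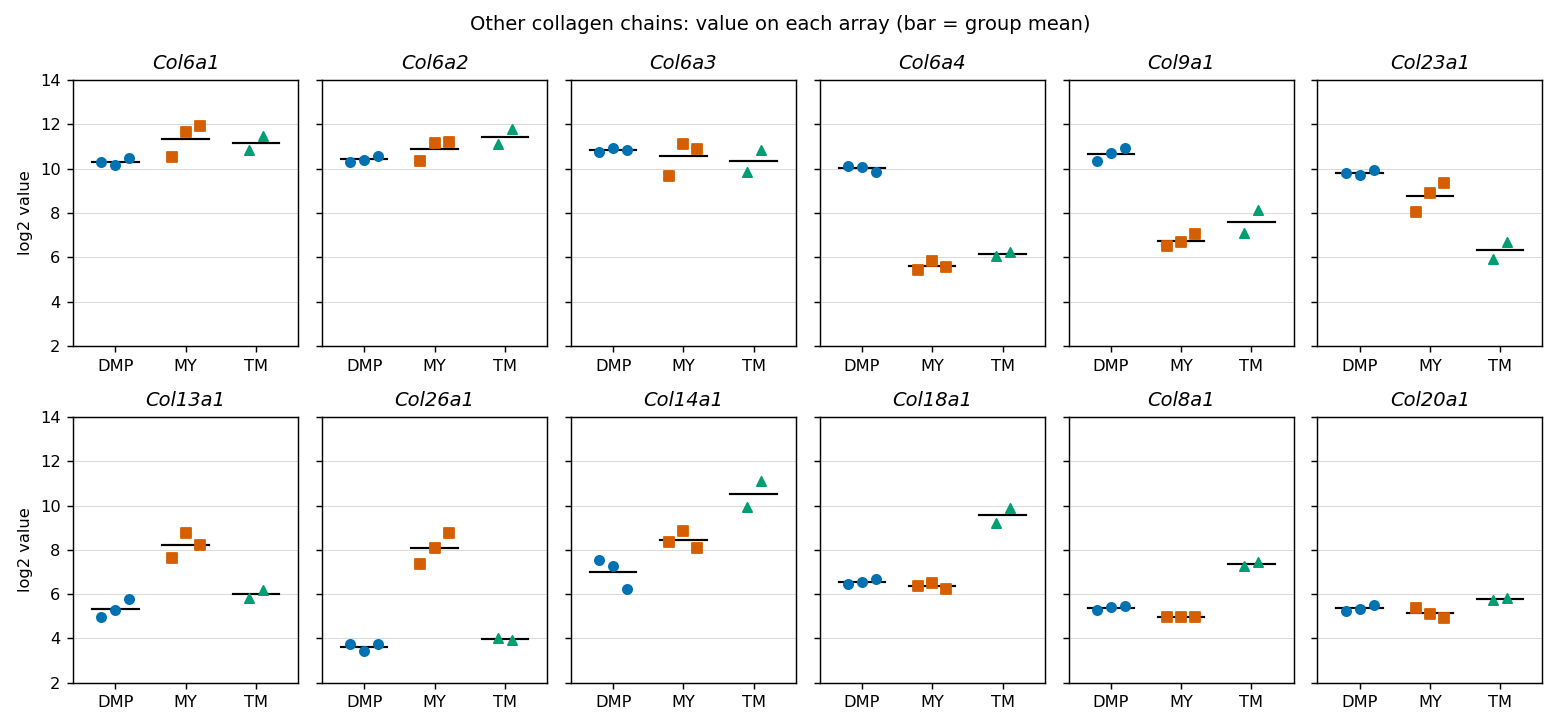
Log2 value (y axis, 2 to 14) of 12 other collagen genes on each array of ICC-DMP cells (DMP), ICC-MY cells (MY) and tunica muscularis (TM), with a bar at each group mean. Col6a4 and Col9a1 are highest in ICC-DMP cells, Col13a1 and Col26a1 in ICC-MY cells, and Col14a1, Col18a1 and Col8a1 in tissue.

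Fibroblast, mesothelial, neuron, macrophage and glial marker lists had genes called lower in both cell classes than in tissue and none called higher. Over all genes 7.32% were called lower than tissue in ICC-DMP cells and 9.78% in ICC-MY cells. Of 7 fibroblast markers measured, 4 were lower in ICC-DMP cells than in tissue and 6 in ICC-MY cells, and the list mean ranged from 6.97 to 7.64, from 6.64 to 7.21, and from 9.09 to 9.87 on the tissue arrays. Between the classes, 2 of 7 (Pdgfra and Fbln1) were higher in ICC-DMP cells and 0 lower (5.36% and 3.30% of all genes), with a list median of 1.27. All 6 mesothelial markers, of the cell sheet on the outer gut surface, were lower in both classes (3.97 to 4.12 and 3.74 to 3.89, against 8.73 to 8.99 in tissue). All 6 neuron and all 5 macrophage markers measured were lower in both classes as well, with list means from 3.32 to 3.46 and 3.25 to 3.34 against 7.70 to 8.31 for neurons, and 4.03 to 4.05 and 4.03 to 4.24 against 6.47 to 7.15 for macrophages. Of 4 glial markers measured, 2 were lower in each class (5.30 to 5.46 and 4.76 to 4.97, against 6.92 to 7.17).

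Vessel markers behaved less uniformly. Over all genes, 3.72% were called higher and 7.32% lower in ICC-DMP cells than in tissue, and 4.05% and 9.78% in ICC-MY cells. Between the classes 5.36% were higher and 3.30% lower in ICC-DMP cells. Endothelial markers were lower than in tissue in 3 of 8 (ICC-DMP, 37.5%) and 1 of 8 (ICC-MY, 12.5%, near the share of all genes). In ICC-DMP cells 4 of 8 were lower than in ICC-MY cells (50.0%). The endothelial list mean ranged from 3.57 to 3.75 in ICC-DMP cells, 4.16 to 5.20 in ICC-MY cells and 4.87 to 5.21 in tissue. Pericyte markers were higher than in tissue in 2 of 6 in each class, 2 were lower in ICC-DMP than in ICC-MY cells, and the list mean ranged from 8.61 to 8.86, 8.50 to 9.41 and 7.73 to 8.58. Of the 7 genes listed as ICC markers (Kit, Ano1, Thbs4, Prkcq, Cd44, Edn3 and Elovl6), 4 and 6 were higher than in tissue. Between the classes 1 (Thbs4) was higher and 3 (Prkcq, Cd44 and Edn3) were lower in ICC-DMP cells. That list was chosen with earlier results of these data known, so its counts are no independent check of the cell classes. The part of these cell types in the collagen differences was not tested.

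Collagen chains are hydroxylated and folded in the endoplasmic reticulum before export, and 18 of 19 listed enzymes and chaperones of that step were measured. In ICC-DMP cells 1 was higher and 1 lower than in tissue, in ICC-MY cells 0 and 2, and between the classes 2 were higher and 1 lower in ICC-DMP cells, with medians of 0.02, -0.32 and 0.22. These counts are 11.1%, 11.1% and 16.7% of the list, against 11.0%, 13.8% and 8.67% of all genes. P3h2, a prolyl hydroxylase that acts on type IV collagen, read 7.92, 7.78 and 8.0 in ICC-DMP cells, 6.38, 6.84 and 6.55 in ICC-MY cells, and 7.07 and 7.24 in tissue, without overlap. It was higher in ICC-DMP than in ICC-MY cells by 1.31 ± 0.16 (adjusted p = 0.00119) and than in tissue by 0.75 ± 0.18 (adjusted p = 0.0309). The tissue call was lost without any ICC-DMP array, without ICC-MY replicate 3 and without either tissue array (adjusted p from 0.0504 to 0.145). P3h3, a relative of P3h2, was higher by 1.50 ± 0.31 in ICC-DMP than in ICC-MY cells (adjusted p = 0.0189), a call lost without any ICC-DMP array or ICC-MY replicate 2 (adjusted p from 0.0607 to 0.0789).

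P4ha2, a catalytic subunit of the prolyl hydroxylase that stabilises the triple helix, read 4.53, 3.81 and 3.77 in ICC-DMP cells, 5.25, 5.52 and 5.72 in ICC-MY cells, and 5.64 and 5.54 in tissue. The ICC-DMP arrays were below all others. ICC-DMP cells were lower than tissue by -1.56 ± 0.25 (adjusted p = 0.00537) and than ICC-MY cells by -1.46 ± 0.23 (adjusted p = 0.00467). In ICC-MY cells the collagen export gene Sec24d was lower than in tissue by -1.67 ± 0.33 (adjusted p = 0.0116, but 0.0691 without tunica muscularis replicate 2) and the lysyl hydroxylase Plod2 by -1.28 ± 0.35 (adjusted p = 0.0465). Plod2 was no longer called (adjusted p from 0.0666 to 0.229) on omission of replicate 1 or 2 of the ICC-DMP arrays, replicate 1 or 3 of the ICC-MY arrays, or either tissue array. Between the classes the blocked fit called Sec24d (1.11, adjusted p = 0.00271) and Plod2 (1.15, adjusted p = 0.00644), which the unblocked fit did not (adjusted p = 0.0603 and 0.0651). In the blocked fit P3h4, Plod1, P3h3 and P4ha3 gained calls. P3h4 was lower than tissue in ICC-DMP cells (-0.91, adjusted p = 0.0291, against 0.109 unblocked) and in ICC-MY cells (-0.88, adjusted p = 0.0283, against 0.109). Plod1 was lower than tissue in ICC-DMP cells (-0.85, adjusted p = 0.0392, against 0.167), P3h3 in ICC-MY cells (-0.79, adjusted p = 0.0294, against 0.384), and P4ha3 was higher in ICC-DMP than in ICC-MY cells (0.77, adjusted p = 0.0156, against 0.0543).

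Outside the cell, procollagens are trimmed and cross-linked, and 11 of 14 genes listed for these steps were measured. Called higher and lower were 1 and 1 in ICC-DMP cells against tissue, 1 and 1 in ICC-MY cells, and 1 and 2 between the classes. Medians were -0.17, -0.06 and -0.01. The called genes were 18.2%, 18.2% and 27.3% of the list, against 11.0%, 13.8% and 8.67% of all genes. Adamts3, a procollagen N-proteinase, read 7.06, 6.74 and 6.71 in ICC-DMP cells, 5.29, 5.31 and 5.40 in ICC-MY cells, and 5.0 and 4.94 in tissue, without overlap. It was higher in ICC-DMP cells by 1.86 ± 0.16 against tissue (adjusted p = 0.000148) and by 1.50 ± 0.14 against ICC-MY cells (adjusted p = 0.000307), or by 0.86 and 0.74 with the probe sets averaged. Lox, the enzyme that starts cross-linking, read 8.74 and 9.32 in tissue, 6.24, 6.51 and 5.67 in ICC-DMP cells, and 6.78, 7.27 and 6.06 in ICC-MY cells. Both classes lay below the tissue, by -2.89 ± 0.38 (adjusted p = 0.00171) and -2.32 ± 0.38 (adjusted p = 0.00432), or by -1.76 and -1.44 with the probe sets averaged. Between the classes Lox differed by -0.56 (adjusted p = 0.48), which the blocked fit called (adjusted p = 0.0339).

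Pcolce2, an enhancer of C-propeptide removal, was highest in ICC-MY cells, with 5.53, 6.73 and 7.13 there, 3.40, 3.75 and 3.12 in ICC-DMP cells, and 3.34 and 3.99 in tissue. ICC-MY cells exceeded tissue by 2.80 ± 0.45 (adjusted p = 0.00372), and ICC-DMP cells were below ICC-MY cells by -3.04 ± 0.40 (adjusted p = 0.00193). The Pcolce2 readings in ICC-DMP cells and tissue were under the array medians, where a value may lie near background. The size of these differences depends on that level. Tll1, a C-proteinase, was also lower in ICC-DMP than in ICC-MY cells, by -1.37 ± 0.22 (adjusted p = 0.00591). Its ICC-MY difference from tissue was 0.82 (adjusted p = 0.0695), or 0.86 in the blocked fit (adjusted p = 0.0487).

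Among collagen receptors 9 of 10 listed genes were measured. The limma fit called 0 in ICC-DMP cells against tissue, 1 in ICC-MY cells against tissue and 0 between the classes. Over all genes 11.0%, 13.8% and 8.67% were called. An unadjusted p under 0.05 was found for 3, 4 and 1 of the receptors, and for 3945, 4472 and 3360 of the 18193 genes. Itga10, a collagen-binding integrin chain, was the called one, at 1.39 ± 0.34 (adjusted p = 0.0301). That call was lost without any ICC-DMP array, ICC-MY replicate 2 or either tissue array (adjusted p from 0.0501 to 0.114). Between the classes it differed by -1.20 ± 0.31 (adjusted p = 0.0503), and the blocked fit called it (adjusted p = 0.00389). The blocked fit also called the receptor kinase Ddr1 higher than tissue in ICC-DMP cells (0.75, adjusted p = 0.0265, against 0.0669 unblocked) and in ICC-MY cells (0.62, adjusted p = 0.0493, against 0.103). It called the endocytic receptor Mrc2 lower in both (-1.02, adjusted p = 0.00624, against 0.0634, and -0.93, adjusted p = 0.00816, against 0.081).

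Among 9 small proteoglycans that bind collagen fibrils or basement membranes, 2 were higher and 1 lower in ICC-DMP cells than in tissue. In ICC-MY cells the counts were 0 and 4, and between the classes 2 and 0. Medians were -0.62, -1.03 and 0.54. The called genes were 33.3%, 44.4% and 22.2% of the list, against 11.0%, 13.8% and 8.67% of all genes. Bgn (biglycan) read 10.32, 10.39 and 10.74 in ICC-DMP cells, 7.31, 8.05 and 8.25 in ICC-MY cells, and 8.08 and 8.70 in tissue. The ICC-DMP arrays were the highest and the others overlapped. ICC-DMP cells exceeded tissue by 2.09 ± 0.31 (adjusted p = 0.00307) and ICC-MY cells by 2.61 ± 0.28 (adjusted p = 0.000575). The ICC-MY difference from tissue was -0.52 (adjusted p = 0.377), and -0.68 in the blocked fit (adjusted p = 0.0432).

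Prelp, a proteoglycan that links basement membranes to underlying collagen, was highest in ICC-DMP and lowest in ICC-MY cells. Col4a4, Col6a4, Col9a1 and P3h2, among others, had the same order of groups. These were picked after their values were seen, and the share of all genes with that order was not counted. Of the named genes only Col4a4 was also called lower in ICC-MY cells than in tissue. Prelp read 8.07, 7.88 and 8.17 in ICC-DMP cells, 4.45, 4.54 and 4.96 in ICC-MY cells, and 5.68 and 6.03 in tissue, with no overlap. ICC-DMP cells exceeded tissue by 2.19 ± 0.20 (adjusted p = 0.000262) and ICC-MY cells by 3.39 ± 0.18 (adjusted p = 3.12e-05), and ICC-MY cells were below tissue by -1.21 ± 0.20 (adjusted p = 0.00502). With the probe sets averaged these were 1.27, 2.05 and -0.78.

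Fmod (fibromodulin) read 8.61 and 9.45 in tissue, against 4.95, 4.20 and 4.78 in ICC-DMP cells and 4.19, 5.07 and 5.28 in ICC-MY cells. Both classes lay far below the tissue, by -4.39 ± 0.39 (adjusted p = 0.000195) and -4.19 ± 0.39 (adjusted p = 0.000218), or by -2.79 and -2.68 with the probe sets averaged. Dcn (decorin) and Ogn (osteoglycin) were lower in ICC-MY cells than in tissue, by -1.75 ± 0.45 (adjusted p = 0.0362) and -2.29 ± 0.47 (adjusted p = 0.014). Dcn lost its call without any ICC-DMP array, ICC-MY replicate 1 or 3 or tunica muscularis replicate 2 (adjusted p from 0.0546 to 0.218), and Ogn read -1.38 without tunica muscularis replicate 2 (adjusted p = 0.0349) and lost its call with only those 2 groups in the fit (adjusted p = 0.0635). In ICC-DMP cells the blocked fit called Dcn (-1.26, adjusted p = 0.0141) and Ogn (-1.42, adjusted p = 0.0103), and the unblocked fit did not (adjusted p = 0.115 and 0.0903). It also called Lum (lumican) and Kera (keratocan) higher in ICC-DMP than in ICC-MY cells (0.95, adjusted p = 0.0231, against 0.361, and 0.54, adjusted p = 0.0349, against 0.0739), and Kera lower in ICC-MY cells than in tissue (-0.56, adjusted p = 0.045, against 0.0666).

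**Figure D5:**
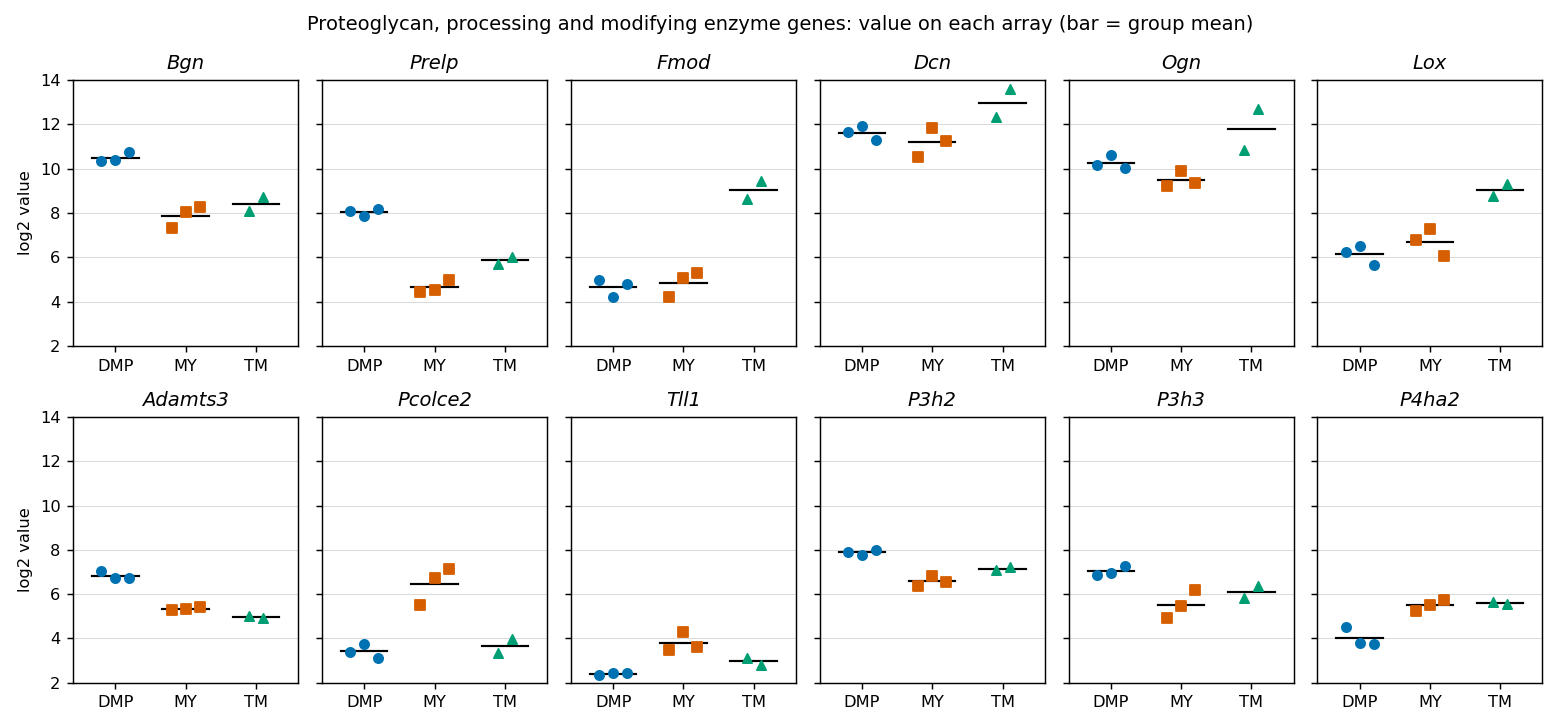
Log2 value (y axis, 2 to 14) of 12 genes for proteoglycans, processing enzymes and modifying enzymes of collagen on each array of ICC-DMP cells (DMP), ICC-MY cells (MY) and tunica muscularis (TM), with a bar at each group mean. Bgn, Prelp, Adamts3 and P3h2 are highest in ICC-DMP cells, Pcolce2 is highest in ICC-MY cells, and Fmod and Lox are highest in tissue.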

How the data were processed

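Total RNA from 3 ICC-DMP, 3 ICC-MY and 2 tunica muscularis samples was hybridised to single-colour oligonucleotide arrays. The authors deposited log2 expression values per probe set. The submitters' processing notes name RMA and limma, without versions or the role of each. Of 45101 probe sets, 64 controls were left out, 34945 named 1 gene, 932 named several and 9160 were unnamed here. The Entrez identifiers of 34754 single-gene probe sets were in RefSeq's mouse table (GRCm38.p6), and 0 symbols were updated. Each of 18193 genes took its probe set of highest mean over the 8 arrays, and 27 of the 42 collagen genes had several. No filter or further normalization was applied. Groups came from titles.

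The limma package (version 3.58.1, under R 4.3.3) was run with all 3 groups in 1 fit (5 residual degrees of freedom). The 2-sided moderated test was adjusted by Benjamini-Hochberg over 18193 genes. The scripts were tested on simulated data. The members and lists were chosen with earlier results of these data known. Text names every called collagen gene, all type IV chains, the main type I, III and VI chains, up to 3 called genes per collagen pathway list and comparison (a gene named for one comparison may appear in others), and, chosen after their values were seen, pathway genes whose call the replicate block changed.

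The labels do not say what equal replicate numbers share. Deviations of same-numbered samples from their group means correlated positively in all 7 pairs. Correlations were 0.29, 0.50 and 0.39 (ICC-DMP with ICC-MY), 0.16 and 0.32 (ICC-DMP with tissue), 0.58 and 0.61 (ICC-MY with tissue). These pairs are not independent, since the deviations of the 2 tissue arrays mirror each other. The 0.58 is that of the 2 narrow-range arrays. Some differently numbered pairs were also positive (0.14 for ICC-DMP 3 with tissue 1, 0.17 for ICC-MY 3 with tissue 2). The numbers were therefore treated only as a possible pairing, and a replicate block was fitted as an alternative. Quantile normalization, median centring, removal of dim probe sets, averaged probe sets, array weights, an intensity trend, only the 2 groups compared, single probe sets, a minimum difference of 1 and omission of arrays were the others. The number of arrays limits the precision.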

Additional observations from a re-analysis of the deposited data

Results flagged for a closer look

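Col4a4, a type IV collagen chain, was the collagen gene called against tissue in opposite directions in the 2 cell classes, higher in ICC-DMP cells (1.02) and lower in ICC-MY cells (-2.12). The test of the difference itself, ICC-DMP minus ICC-MY, gave 3.14 ± 0.25 (limma, adjusted p = 0.000127), and the groups did not overlap on any array. The ICC-DMP excess over tissue was at the threshold (adjusted p = 0.0499). It was lost in 10 of 17 alternatives and was 0.57 (adjusted p = 0.242) without tunica muscularis replicate 1.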

How the results depend on the processing

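Each gene was refitted under 16 or 17 alternatives, in which no called collagen difference changed sign. Of 34 called collagen differences, 24 kept their call in all of these and 10 lost it in at least 1, and of 92 uncalled ones 71 gained no call. Probe sets tested singly are apart from that count: they called 16, 13 and 11 collagen genes, and the unused probe sets of Col6a4 (-0.09 in ICC-DMP cells) and Col5a3 (0.02 in ICC-MY cells) had the opposite sign to the called difference from tissue, uncalled. No count over all probe sets was made for that setting. Of 24 called differences of collagen pathway genes, 17 kept their call throughout. The count of collagen genes called between ICC-DMP and ICC-MY cells, 10, rose to 17 in the fit with the replicate block. It rose to 16 with quantile normalization, with array weights and with both narrow-range arrays left out. Each of these settings held all 10. Over all genes the count rose from 1577 to 2617, 2557, 2646 and 2630 under these settings. Leaving out 1 cell array gave 10 to 15 called members for ICC-DMP against tissue (12 with all arrays). It gave 9 to 13 for ICC-MY against tissue (12) and 7 to 9 between the classes (10). The counts over all genes moved as well, from 1264 to 2480, from 1993 to 2960 and from 991 to 1840 in the same order. The block gave 17 and 14 against tissue, and 2853 and 3537 of all genes (2009 and 2516 without it). Among collagen and pathway genes it changed no call other than those quoted beside the results. The cause was not tested in any of these. With 2 tissue arrays, small differences from tissue could not be resolved, and the 14 members under the median of all genes may lie near background, which the deposited values do not give. Of 12, 11 and 8 called members with several probe sets, another was called in the same direction for 7, 8 and 4, and 0 in the opposite one.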

Other observations

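Some probe sets that did not represent their gene, because another had a higher mean, gave other readings (adjusted over all probe sets). The second Col4a6 probe set read 4.39, 4.06 and 4.31 in ICC-DMP cells, 3.68, 3.11 and 3.40 in ICC-MY cells, and 3.58 and 3.30 in tissue, and differed by 0.86 ± 0.18 between the classes (limma, adjusted p = 0.024) and by 0.82 ± 0.20 between ICC-DMP cells and tissue (adjusted p = 0.0353), all at low values. A weaker Col1a2 probe set read 7.07, 6.21 and 6.27 in ICC-DMP cells against 4.01 and 4.58 in tissue, a difference of 2.22 ± 0.38 (adjusted p = 0.00672). A further Col4a1 probe set differed by 0.96 ± 0.23 between ICC-MY cells and tissue (adjusted p = 0.0264) and by 0.74 ± 0.23 between ICC-DMP cells and tissue (adjusted p = 0.08). These were chosen after their values were seen.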
